A study of Mus musculus with 8 samples.

Results

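Basal keratinocytes of the hair follicle bulge, sorted for the surface protein CD34, were compared with CD34-negative basal keratinocytes, which came mainly from the epidermis between the follicles. The comparison used 6 of the 8 arrays in the series, chosen by their labels and not by any measured value: 3 of CD34+ cells and 3 of the CD34-negative cells, called IFE cells here. The other 2 arrays held GFP-positive cells and were not compared. They did enter the normalisation, the detection filter, the choice of probe for each gene and the estimate of the spread shared by all groups. Each array measured the RNA of 1 sorted sample on an Illumina MouseRef-8 v2.0 bead array, and 9545 genes could be tested.

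All cells came from dorsal trunk skin of adult mice in telogen, the resting stage of the hair cycle. The mice carried 1 Gli1-eGFP allele, which reports hedgehog signalling, on an outcrossed Swiss Webster background. CD34+ and IFE cells therefore share that allele, and both were GFP-negative, viable, single cells stained for α6 integrin, a receptor of basal keratinocytes. The design text pools 2 mice for each replicate of the experiment, read here as 1 pool sorted into all its cohorts, so the comparison rests on 3 pools. The gates limit both groups as models. CD34+ cells are labelled as bulge from which hedgehog-responding cells were left out, although Gli1 RNA was detected on all 3 of their arrays, and IFE cells include the infundibulum, the mouth of the follicle.

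The bulge holds stem cells that stay mostly quiescent in telogen and rebuild the lower follicle when a new hair cycle begins. BMP signals and secreted Wnt inhibitors are known to keep them at rest, while Wnt signals activate them. Basal cells of the interfollicular epidermis divide throughout life and give rise to the stratified layers of the barrier.

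Values are background-corrected, quantile-normalised intensities on a log2 scale, and the values of a group are given in the order of replicates 1, 2 and 3. A gene is called higher or lower in CD34+ cells at a limma adjusted p under 0.05 (Benjamini-Hochberg over all genes tested), and other genes are said not to pass. Errors are standard errors (SE) of the fitted log2 difference, CD34+ minus IFE, with n = 3 and 3. Where every array of the dimmer group left a probe undetected, its change is given as an "at least" fold against the lowest detected signal. CD34+ arrays detected 12209 to 12601 probes and IFE arrays 11027 to 11680. Across genes, which are not independent replicates, 2 CD34+ arrays correlated at 0.933 to 0.945, 2 IFE arrays at 0.943 to 0.95, and a CD34+ with an IFE array at 0.877 to 0.893.

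CD34+ cells differed from IFE cells in 458 genes, 4.8% of those tested: 281 were higher (2.94%) and 177 lower (1.85%). Every one of the 458 differed by at least 2-fold and had 3 CD34+ arrays that did not overlap with the 3 IFE arrays. Groups also failed to overlap for 27.7% of all genes, 13.9% with CD34+ above and 13.7% with CD34+ below, so that alone is common. The median difference over all genes was -0.014. Differences of at least 4-fold were found in 145 of the higher and 49 of the lower genes. The probe used was detected on no IFE array for 73 called genes and on no CD34+ array for 17. The 2 GFP-positive arrays correlated with each other at 0.82. Normalised, filtered and fitted without them, 829 of 9160 genes passed (448 higher and 381 lower), and 454 of the 458 were among them. With the pool of mice as a block, 346 passed, 328 of them shared with the 458. Leaving out 1 of the 6 arrays left 189 to 251 calls, and 159 of the 458 genes passed in all 6 of those fits. For a named gene that lost its call in one of them, the highest adjusted p of the 6 fits is given as its "leave-one-out adjusted p".

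**Figure D1:**
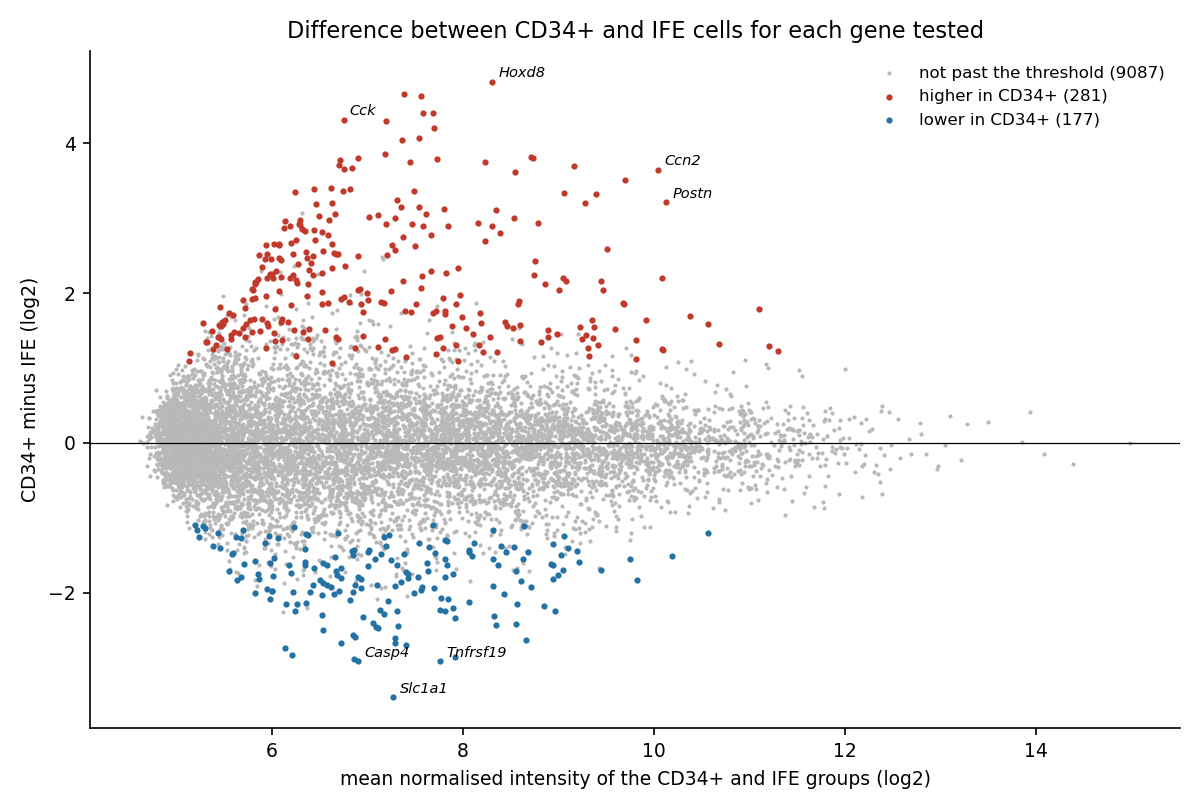
Each point is 1 of the 9545 genes, with the mean normalised intensity of the CD34+ and IFE groups (log2) on the horizontal axis and the difference CD34+ minus IFE (log2) on the vertical axis. Red points are the 281 genes higher and blue points the 177 genes lower in CD34+ cells; grey points did not pass, and the increases reach further from 0 (Hoxd8, 4.82) than the decreases (Slc1a1, -3.39).

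The sort labels were first set against marker genes. Cd34, whose protein was used for sorting, read 8.50, 8.61 and 8.86 in CD34+ cells and 5.46, 6.31 and 5.44 in IFE cells. Lgr5, an R-spondin receptor of follicle stem cells, read 8.48, 9.17 and 8.75 against 5.33, 4.75 and 4.93, and was detected on no IFE array. Postn, the matrix protein periostin, read 11.44, 11.73 and 12.02 against 8.47, 8.35 and 8.74. All 3 markers thus separated the groups on every array, by log2 2.92 ± 0.31, 3.80 ± 0.33 and 3.21 ± 0.29. The basal keratins differed less than these markers, as did α6 integrin, for which both groups were stained. Krt5 read 12.89, 12.50 and 12.74 against 12.25, 12.79 and 12.15, and Krt14 read 11.93, 12.15 and 12.23 against 12.52, 12.49 and 12.49. Itga6 read 9.08, 9.26 and 9.23 against 9.62, 9.79 and 9.67, and none of these 3 genes passed (limma adjusted p = 0.67, 0.523 and 0.401). For Krt14 and Itga6 every CD34+ array still lay below every IFE array.

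Krt15, a keratin often used as a bulge marker, was 1.98-fold higher and did not pass (limma adjusted p = 0.0888). It read 12.10, 12.76 and 12.62 in CD34+ cells and 11.35, 11.43 and 11.74 in IFE cells, so it was abundant in both groups and the arrays did not overlap.

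**Figure D2:**
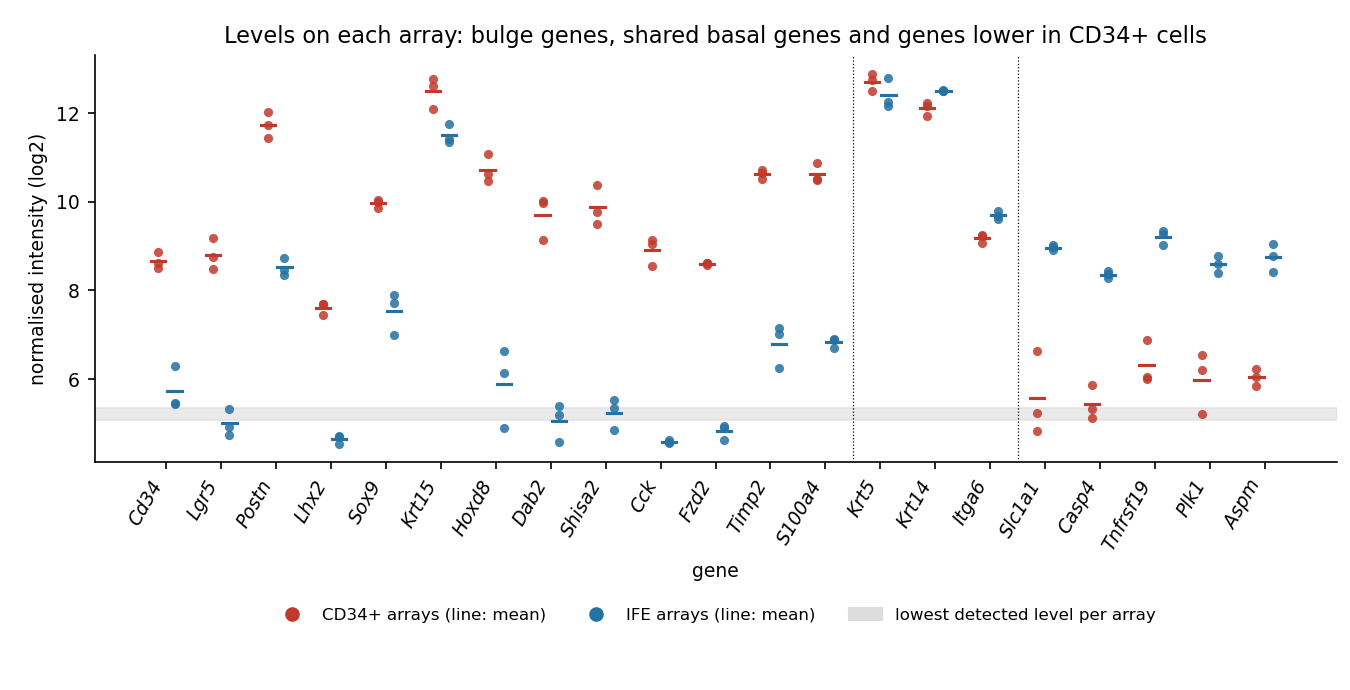
Normalised intensity (log2) of 21 genes on each array; points are arrays, short lines are group means of 3, and the grey band spans the lowest detected level of the 6 arrays. The first 13 genes belong to or accompany the bulge and lie higher on the CD34+ arrays, Krt5, Krt14 and Itga6 lie close together, and the last 5 lie lower on the CD34+ arrays.

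Of 28 measured genes linked to bulge stem cells, 17 were higher in CD34+ cells, none was lower, and 11 did not pass. Over all genes 2.94% were higher. The median difference of the list was 1.95, against -0.014 over all genes. The CD34+ arrays lay above the IFE arrays for 25 of the 28, against 13.9% of all genes. The list was written with results of these samples known, so its count is a description. Sox9, a transcription factor needed for bulge stem cells to form, read 9.99, 10.04 and 9.86 against 7.90, 7.73 and 7.0, a rise of 2.42 ± 0.31. Lhx2, a LIM-homeobox factor that maintains the bulge, read 7.68, 7.44 and 7.70 and was detected on no IFE array, which makes it at least 5.05-fold higher. Both factors were far apart from the IFE values on every array. Angptl7, a secreted angiopoietin-like protein, read 9.18, 10.33 and 10.14 against 6.12, 4.57 and 5.79, a 21.1-fold difference. Tnc, the matrix protein tenascin-C, was 6.26-fold higher (limma adjusted p = 0.00535). Foxp1, a forkhead factor linked to stem cell quiescence, was 2.67-fold higher (0.0142, with a leave-one-out adjusted p of 0.0718, and kept its call only without IFE replicate 2).

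Nfatc1, a calcineurin-dependent factor of quiescent bulge cells, and Tcf7l1, a Wnt-pathway repressor, are named here after their values were seen. Nfatc1 read 7.52, 7.84 and 8.21 against 7.26, 6.38 and 6.90 and did not pass (limma adjusted p = 0.117). Tcf7l1 read 7.71, 7.19 and 5.70 against 6.65, 5.95 and 6.48, with overlapping groups (0.691). Another member of the NFAT family, Nfatc4, was the only 1 of 15 NFAT and calcineurin genes to pass. It read 8.71, 8.63 and 8.66 in CD34+ cells and 5.48, 4.74 and 4.78 in IFE cells, and was detected on 1 of the 3 IFE arrays.

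The largest increases joined genes of several functions. Hoxd8, a homeobox gene, read 10.46, 10.62 and 11.07 against 4.90, 6.64 and 6.15, a difference of 4.82 ± 0.43 (limma adjusted p = 0.000329), with 2 of the 3 IFE arrays detected. Dab2, an endocytic adaptor, read 9.13, 10.02 and 9.97 against 4.58, 5.20 and 5.39, the last group detected on 1 of 3 arrays. Sgcd, a sarcoglycan of the dystrophin complex, read 10.22, 9.85 and 9.27 against 4.72, 6.56 and 4.84. In these 3 genes every CD34+ value exceeded every IFE value by more than 2.7 on the log2 scale. A second probe was kept for Dab2 and for Sgcd, and these probes differed by 2.83 and 2.08. Cck, the peptide hormone cholecystokinin, read 9.04, 8.55 and 9.13 and was detected on no IFE array, at least 12.4-fold higher. Apbb1, an adaptor that binds the amyloid precursor protein, read 9.70, 9.41 and 9.62 against 5.54, 5.48 and 5.49 (4.08 ± 0.27). Igdcc4, an immunoglobulin-domain receptor, read 9.64, 9.68 and 10.09 against 5.58, 6.29 and 4.90 (4.21 ± 0.61). Apbb1 thus had a narrow range within each group, while the IFE values of Igdcc4 were further apart.

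Timp2, an inhibitor of matrix metalloproteinases, read 10.51, 10.71 and 10.65 against 7.01, 7.15 and 6.25 (3.82 ± 0.31). S100a4, a calcium-binding protein, read 10.51, 10.49 and 10.88 against 6.91, 6.88 and 6.71 (3.80 ± 0.26). S100a4 was the only 1 of 8 measured S100 genes to pass. Mfge8, a secreted bridging protein for the removal of dying cells, read 11.57, 11.35 and 11.43 against 7.99, 8.27 and 7.56, and its other probe gave a difference of 4.36 beside 3.51. Ppp1r3c, which targets protein phosphatase to glycogen, was 13.8-fold higher, Sardh, a mitochondrial sarcosine dehydrogenase, 13.5-fold, and Dhrs2, a short-chain dehydrogenase, 13.4-fold. Spink2, a serine protease inhibitor, was 14.5-fold higher and detected on 1 of 3 IFE arrays. Kcnk2, a background potassium channel, was at least 9.91-fold higher, and Tgm5, an epidermal transglutaminase, at least 9.7-fold. Mfge8 is named after its value was seen.

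Of 10 measured Wnt ligands 3 were lower in CD34+ cells and none was higher, and all 10 differences were below 0, with a median of -1.05. The median lay nearer to 0 with other scalings, at -0.23 in the deposited log2 values, where 2 ligands passed. Wnt5a, a ligand of mainly β-catenin-independent signalling, read 6.64, 6.03 and 4.94 in CD34+ cells and 8.29, 8.71 and 8.03 in IFE cells. Wnt10a read 6.45, 7.35 and 7.26 against 8.63, 8.45 and 8.86, and Wnt3a read 4.86, 5.63 and 6.40 against 7.36, 7.38 and 7.84. The 3 ligands were 5.54-fold, 3.09-fold and 3.72-fold lower (limma adjusted p = 0.0121, 0.0186 and 0.0453). Their calls depended on the arrays used. Wnt5a lost its call without IFE replicate 1 (0.0524) or IFE replicate 2 (0.0652). Wnt10a kept its call only without CD34+ replicate 2 or 3 (leave-one-out adjusted p = 0.0947), and Wnt3a only without CD34+ replicate 3 (0.181, and 0.0684 with the pool as a block).

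Of 13 measured Wnt receptors, 4 were higher and 1 was lower. Fzd2, a Frizzled receptor, read 8.62, 8.57 and 8.62 in CD34+ cells and was detected on no IFE array, at least 10.1-fold higher. Fzd1 read 8.15, 7.73 and 8.0 against 5.85, 6.56 and 5.72, and Fzd7 read 10.40, 10.49 and 10.18 against 9.39, 8.61 and 8.49. Lgr5, described above, was the fourth. In the opposite direction, Fzd10 read 7.11, 8.26 and 8.14 against 10.07, 10.18 and 10.00, 4.74-fold lower by the probe used, while its other kept probe gave a difference of 0.52. Among the Frizzled genes that passed, Fzd10 alone was lower, and its kept probes disagreed in direction. Fzd1 passed at 0.0272 (0.0609 with the pool as a block, leave-one-out adjusted p = 0.126, kept only without IFE replicate 2) and Fzd7 at 0.0256 (leave-one-out adjusted p = 0.121, kept only without IFE replicate 1). Fzd10 passed at 0.0118 and lost its call without any 1 of the IFE arrays (leave-one-out adjusted p = 0.0586).

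Of 10 measured Wnt inhibitors, most of them secreted, 4 were higher and none was lower. Shisa2, which is not secreted and holds Frizzled and FGF receptors back from the cell surface, read 9.76, 10.37 and 9.49 against 4.86, 5.35 and 5.53. Its other kept probe gave a difference of 4.16 beside 4.63. Dkk3, a secreted Dickkopf family protein, read 11.11, 10.58 and 11.32 against 7.62, 6.73 and 7.58. Sfrp1, a secreted Frizzled-related decoy, read 10.85, 10.50 and 10.11 against 8.65, 8.40 and 8.28. Each of these 3 inhibitors was abundant on all CD34+ arrays and passed whichever array was left out. Wif1, a Wnt-binding inhibitor, read 7.55, 5.74 and 7.43, with replicate 2 nearest to the undetected IFE arrays, and was at least 3.09-fold higher (limma adjusted p = 0.0257, leave-one-out adjusted p = 0.116, kept only without CD34+ replicate 2). None of 20 measured Wnt transducers and targets passed. Ctnnb1, which encodes β-catenin, read 12.25, 11.76 and 12.00 against 11.73, 11.21 and 11.82.

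In the BMP and TGF-beta pathway several binding proteins were higher, and no ligand passed. Of 21 measured receptors and binders 6 were higher, 1 was lower and 14 did not pass, and the median over the list was 0.17. Fstl1, a secreted follistatin-like glycoprotein, read 9.45, 9.50 and 9.20 against 6.08, 5.28 and 4.66. Grem1, a BMP antagonist, read 11.26, 10.95 and 10.95 against 8.24, 7.44 and 7.53. Nbl1, a related antagonist, read 8.83, 9.12 and 9.16 against 7.52, 7.11 and 7.30. Noggin (Nog), also a BMP antagonist, read 6.41, 6.32 and 5.99 and was at least 1.96-fold higher, with no IFE array detected. All 4 genes passed whichever array was left out. The latent TGF-beta binding proteins Ltbp1 (3.61-fold) and Ltbp3 (2.78-fold) were also higher, with leave-one-out adjusted p = 0.0968 (Ltbp1, kept only without IFE replicate 1) and 0.122 (Ltbp3, lost with any 1 array left out, and 0.0568 with the pool as a block). Tgfbr3, the co-receptor betaglycan, was 2.75-fold lower by the probe used (limma adjusted p = 0.0495, 0.0684 with the pool as a block, leave-one-out adjusted p = 0.186, lost with any array left out), and its other probe gave a difference of 0.38.

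None of 10 BMP and TGF-beta ligands passed. Bmp4, named after its values were seen, read 7.23, 6.83 and 7.18 in CD34+ cells and 8.90, 8.74 and 8.67 in IFE cells. Those 6 values were well apart, yet the adjusted p was 0.248, and it was 0.00259 in the fit of the 6 arrays alone. The GFP-positive arrays, which share the estimate of the spread, read 8.36 and 4.84. Of 17 Smads and pathway targets, 3 were higher. Id2 and Id1, BMP-induced inhibitors of helix-loop-helix factors, read 9.21, 9.90 and 9.76 against 6.59, 6.40 and 7.06, and 8.68, 8.43 and 8.23 against 6.73, 5.99 and 6.13. Ccn2, a matricellular target of TGF-beta and of YAP, read 12.20, 11.68 and 11.72 against 8.57, 8.0 and 8.09. The 3 targets were higher by 2.94 ± 0.46, 2.16 ± 0.30 and 3.65 ± 0.29.

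Both groups were sorted as GFP-negative, yet Gli1, the gene that carries the reporter, was higher in CD34+ cells. It read 7.06, 8.42 and 7.35 against 5.07, 5.32 and 5.01, with 1 of the 3 IFE arrays detected (5.56-fold, limma adjusted p = 0.00477). The GFP-positive arrays read 8.82 and 8.36, so CD34+ replicate 2 lay between them. Gas1, a membrane co-receptor for hedgehog ligands, read 9.37, 8.91 and 9.44 against 7.61, 7.85 and 7.45 (3.05-fold, 0.00955, and 0.0553 without IFE replicate 3). The other 5 of 7 measured hedgehog genes did not pass. Ptch1, the hedgehog receptor and target, named after its values were seen, read 7.17, 6.57 and 6.72 against 5.28, 5.29 and 5.64 (0.132).

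Growth factor and Notch pathway lists gave 1 or 2 calls each, where 4.8% of all genes tested passed. Counts this small describe single genes and not a family. Fgf1, a fibroblast growth factor, read 7.97, 7.86 and 7.19 against 5.46, 5.26 and 4.83. Its receptor gene Fgfr1 read 10.12, 10.25 and 10.10 against 8.37, 7.99 and 7.62. These were the only 2 of 14 measured FGF genes to pass, and both were higher. Of 12 genes of the IGF system, Igfbp5 and Igfbp7, both insulin-like growth factor binding proteins, were higher. Igfbp5 read 7.48, 7.56 and 7.56 and was at least 4.79-fold higher, with no IFE array detected. Igfbp7 was 2.92-fold higher (limma adjusted p = 0.0293, leave-one-out adjusted p = 0.112, kept only without IFE replicate 1). Of 9 EGF family genes only Epgn, the ligand epigen, passed: it read 7.03, 5.90 and 4.93 against 8.99, 8.05 and 8.81 (6.35-fold lower, 0.0256, leave-one-out adjusted p = 0.115, kept only without CD34+ replicate 1). Notch1 was the only 1 of 18 Notch pathway genes to pass. It read 6.53, 6.81 and 6.48 against 7.85, 7.78 and 7.88 (2.34-fold lower, 0.0312, 0.0639 with the pool as a block, leave-one-out adjusted p = 0.121, lost with any array left out).

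Guidance genes, first described in growing axons, moved in both directions. Of 32 measured semaphorin, ephrin, netrin and neurotrophin genes 3 were higher and 3 lower. Sema3e, a secreted semaphorin, read 9.36, 9.32 and 9.40 in CD34+ cells and 6.47, 6.61 and 5.65 in IFE cells. Plxna2, a semaphorin receptor, read 9.26, 8.98 and 9.11 against 6.93, 6.23 and 7.19. The secreted semaphorins Sema3d and Sema3f ran the other way. Sema3d read 6.60, 6.51 and 7.10 against 8.65, 8.91 and 8.85, and Sema3f read 7.76, 7.96 and 6.56 against 9.30, 9.74 and 9.28. Robo1, a Slit receptor, read 9.17, 8.44 and 9.11 against 10.60, 10.65 and 10.97. Members of the class 3 semaphorins were thus found on both sides. Bdnf, a neurotrophin, was at least 2.53-fold higher (limma adjusted p = 0.0441, 0.0609 with the pool as a block). The calls of Bdnf (leave-one-out adjusted p = 0.169) and Robo1 (0.102) were lost with any 1 array left out, and Sema3f (0.107) kept its call only without CD34+ replicate 2.

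Hox genes, which record position along the body axis, were higher in 7 of 24 measured members and lower in none, with a median difference of 0.53. Hoxb9 read 7.49, 7.57 and 7.34 against 5.41, 5.11 and 4.73, with 1 IFE array detected. Hoxc13, a gene of the hair cortex and matrix, read 7.47, 8.59 and 8.21 against 5.52, 4.67 and 5.13. Hoxd4 read 6.93, 6.90 and 6.64 and was detected on no IFE array, at least 2.92-fold higher. Hoxd9, next to Hoxd8 in its cluster, was at least 2.02-fold higher, Hoxb5 2.73-fold and Hoxc6 2.54-fold. Calls thus fell in the Hoxb, Hoxc and Hoxd clusters and in none of the 8 measured Hoxa genes, whose differences ran from -0.49 to 0.65. No test of a difference between clusters was made. Hoxc9 read 8.62, 8.66 and 6.24 and was undetected in IFE cells, and did not pass (limma adjusted p = 0.111). Hoxd8, Hoxb9 and Hoxc13 passed whichever array was left out. Hoxd4 (leave-one-out adjusted p = 0.136), Hoxb5 (0.139, and 0.0727 with the pool as a block) and Hoxc6 (0.124, and 0.0591 with the block) lost their calls with any array left out, and Hoxd9 (0.063) kept its call only without CD34+ replicate 1 or IFE replicate 3. Hoxc6, Hoxc9 and the Hoxa genes as a group were singled out after their values were seen.

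**Figure D3:**
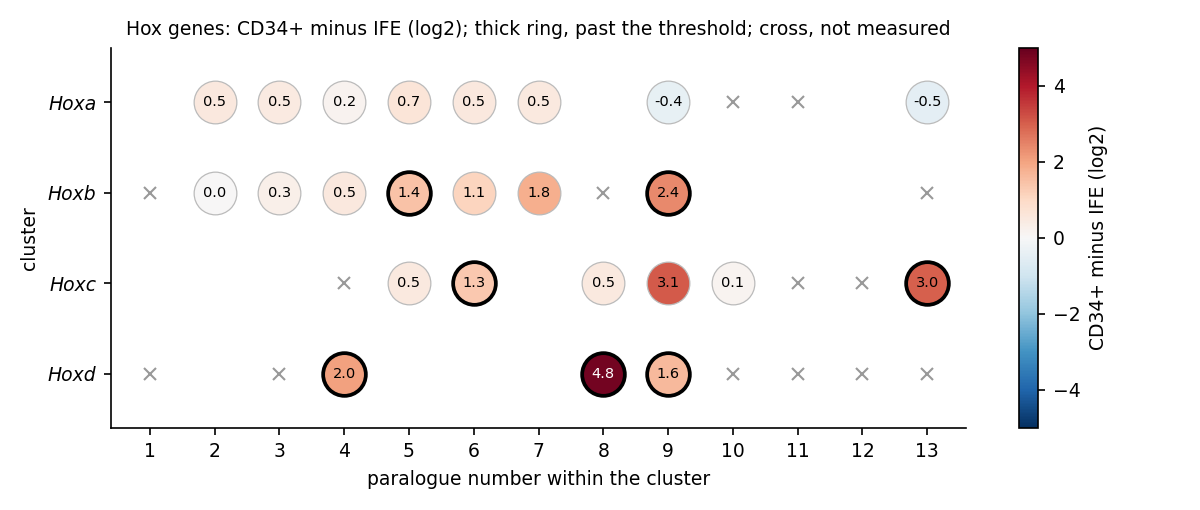
Measured Hox genes by cluster (rows) and paralogue number (columns), coloured and labelled by the difference CD34+ minus IFE on a log2 scale. Thick rings mark the 7 genes that passed, all higher in CD34+ cells, and crosses mark genes on the array that were not measured.

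Other transcription factors also separated the groups. The Distal-less homeobox genes Dlx3 and Dlx2 were higher: Dlx3 read 8.49, 8.83 and 8.38 against 5.77, 6.07 and 6.15, and Dlx2 was at least 3.59-fold higher. Mitf, a factor best known from melanocytes, read 8.07, 8.53 and 7.95 against 5.05, 5.06 and 5.27, detected on 1 IFE array. Ripply3, a transcriptional co-repressor, read 7.0, 7.60 and 7.45 against 9.50, 10.31 and 10.11, 6.16-fold lower. These 4 genes passed whichever array was left out. Gata6, a factor of the upper follicle, read 5.92, 4.95 and 5.67 against 7.90, 7.14 and 7.56, and Gata3, a factor of the inner root sheath and epidermis, read 5.64, 6.03 and 5.61 against 7.17, 7.92 and 7.07. Both GATA genes were lower on every CD34+ array. Ahr, the aryl hydrocarbon receptor, read 5.15, 5.48 and 6.06 against 8.26, 7.97 and 8.16. Sox6 read 7.02, 6.38 and 6.53 against 9.33, 8.65 and 8.65, so that Sox9 and Sox6 moved in opposite directions. The calls of Sox6 (leave-one-out adjusted p = 0.184, and 0.0564 with the pool as a block) and Ahr (0.102) were lost with any array left out. Gata6 (0.0765) kept its call without CD34+ replicate 1, CD34+ replicate 3 or IFE replicate 2, and Gata3 (0.0716) without CD34+ replicate 2 or IFE replicate 3. None of 13 measured Kruppel-like factors passed, and Klf4 read 11.38, 11.18 and 11.14 against 11.31, 11.10 and 11.25.

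Several extracellular matrix genes were higher in CD34+ cells. Of 17 measured matricellular and interstitial matrix genes 8 were higher and 1 was lower. Of 18 collagens 6 were higher and 1 was lower. Fbln1, the elastic fibre protein fibulin-1, read 10.66, 10.73 and 10.78 against 8.05, 6.83 and 7.30. Sparc, a collagen-binding matricellular protein, read 10.33, 10.13 and 9.98 against 8.47, 8.16 and 7.20. Bgn, the proteoglycan biglycan, read 10.35, 9.87 and 8.51 against 7.28, 6.50 and 6.88, with CD34+ replicate 3 nearest to the IFE arrays. Spon2, the matrix protein spondin-2, read 10.36, 10.21 and 10.50 against 8.43, 7.29 and 4.50, the widest spread among these IFE values. Thbs2, the antiangiogenic thrombospondin-2, ran the other way and read 6.09, 5.82 and 6.56 against 8.76, 7.98 and 8.05. Fbln1 and Sparc passed whichever array was left out. Bgn (leave-one-out adjusted p = 0.0599) lost its call without CD34+ replicate 2, IFE replicate 2 or IFE replicate 3, Spon2 (0.112) kept it only without IFE replicate 1 or 3, and Thbs2 (0.086) only without CD34+ replicate 3.

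Among the collagens, Col6a1 and Col6a2 encode chains of beaded-filament collagen VI. Col6a1 read 7.63, 8.17 and 7.55 and was at least 5.69-fold higher, and Col6a2 read 7.65, 7.51 and 7.05 against 4.43, 5.26 and 4.54. Col8a2, of basement membrane collagen VIII, was at least 4.86-fold higher. Col5a2 and Col1a2, of fibrillar collagens, read 6.66, 7.09 and 7.58 against 4.62, 4.75 and 5.37, and 8.01, 7.75 and 7.53 against 4.52, 5.28 and 4.99. Each of these 5 collagens was detected on all CD34+ arrays and on at most 1 IFE array. Col18a1 was 6.7-fold higher by the probe used, and its other kept probe gave a difference of 0.10. Col23a1, a transmembrane collagen, was detected on no CD34+ array and was at least 1.95-fold lower (limma adjusted p = 0.0379, 0.0727 with the pool as a block, leave-one-out adjusted p = 0.161, kept only without IFE replicate 2). Col1a2 lost its call with any array left out (leave-one-out adjusted p = 0.0905).

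Col1a2, Col6a1, Col6a2 and Sparc also stand on a list of 14 fibroblast and dermal papilla markers, and were the only 4 of them measured. All 4 were higher, with a median difference of 2.74. All 14 have a probe on the array. The summed normalised intensity of the list, on a linear scale, ranged from 1780 to 2200 for CD34+ cells and from 495 to 702 for IFE cells. Of the same list, Col3a1, Dcn, Lum, Pdgfra, Vim and Dpt were detected on none of the 6 arrays, nor were the dermal papilla markers Sox2, Alpl and Corin. Col1a1 was detected on CD34+ replicate 2 alone, at 5.83. The part of fibroblasts or dermal papilla cells in these values was not tested.

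Of 19 measured integrin and integrin-linked genes 2 were higher. Itgb6, a β-subunit of a TGF-beta-activating integrin, read 10.08, 10.04 and 9.96 against 8.27, 8.22 and 7.45 (4.12-fold, limma adjusted p = 0.0235, leave-one-out adjusted p = 0.113, lost with any array left out). Fermt2, the integrin activator kindlin-2, was at least 1.73-fold higher (0.036, 0.053 with the pool as a block, leave-one-out adjusted p = 0.126, lost with any array left out). Of 20 laminin and other basement membrane genes, Col18a1 and Egfl6, an EGF-repeat protein deposited by bulge cells, were higher. Egfl6 read 6.42, 6.61 and 6.54 against 5.12, 5.35 and 4.67 (0.0188, 0.0518 with the pool as a block, leave-one-out adjusted p = 0.0944, kept only without IFE replicate 2). Among 32 desmosome, cadherin and tight junction genes 2 were lower and none higher. Cdh4, or R-cadherin, was at least 2.06-fold lower and Tjp3, a tight junction scaffold, 2.77-fold lower, at 0.0443 and 0.03. The call of Cdh4 was lost with any array left out (leave-one-out adjusted p = 0.181), and Tjp3 kept it only without IFE replicate 2 (0.126, and 0.0692 with the pool as a block).

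Of 19 measured keratins with a plain number, Krt24 was higher, Krt16 and Krt79 were lower, and 16 did not pass. Over all genes tested, 4.8% passed. Krt24 read 10.61, 10.85 and 11.17 against 8.02, 8.20 and 6.81. Krt16, a keratin of stressed and hyperproliferative epidermis, read 6.85, 6.0 and 5.73 against 8.97, 8.12 and 8.19. Krt79, a keratin of the infundibulum and sebaceous duct, read 6.52, 6.36 and 6.76 against 8.08, 7.51 and 7.80. Krt6a and Krt6b, the usual partners of Krt16, moved opposite to it. Krt6a read 7.86, 9.04 and 9.46 against 5.95, 5.77 and 5.63, and Krt6b read 7.54, 8.63 and 7.99 against 5.38, 4.53 and 4.69. They are named after their values were seen, and as near-identical copies they may share signal. Krt24 and Krt6b passed whichever array was left out. Krt16 (leave-one-out adjusted p = 0.141) kept its call only without CD34+ replicate 1 and Krt6a (0.065) only without CD34+ replicate 1 or IFE replicate 1. Krt79 lost its call with any array left out (0.153, and 0.0581 with the pool as a block).

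Markers of other epidermal compartments are set beside the shares over all genes, 2.94% higher and 1.85% lower. Of 13 upper follicle genes 3 were lower: Krt79, Gata6 and Defb6, a β-defensin (2.52-fold, limma adjusted p = 0.0215, leave-one-out adjusted p = 0.0965, lost with any array left out). Of 14 interfollicular basal genes none passed, and their median was -0.49. Ly6d and Fgfbp1, named after their values were seen, read 7.85, 8.37 and 8.56 against 9.06, 9.93 and 9.44, and 6.91, 6.94 and 6.52 against 7.79, 8.37 and 7.50 (0.0765 and 0.0826). In both, the CD34+ arrays lay below the IFE arrays. Of 26 cornified envelope and suprabasal genes only Calml3, a calmodulin-like protein, passed, and it was higher: 10.34, 10.20 and 10.22 against 6.28, 8.10 and 7.59. None of 7 sebaceous gland genes passed.

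Of 21 serpins, protease inhibitors of skin among other tissues, Serpinb11 was higher and Serpinb2 and Serpinb7 were lower. Serpinb11 read 8.94, 9.09 and 9.47 against 5.51, 5.29 and 6.60. Serpinb2 read 7.78, 8.32 and 7.20 against 10.30, 9.94 and 9.57, and Serpinb7 read 5.19, 4.77 and 5.56 against 6.46, 6.87 and 7.0. Members of 1 inhibitor family therefore differed in direction. Casp14, the caspase of cornifying cells, was 2.78-fold lower (limma adjusted p = 0.0243, 0.0594 with the pool as a block, leave-one-out adjusted p = 0.102, kept only without CD34+ replicate 3). Of 18 differentiation regulators 1 was higher, 2 were lower and 15 did not pass. Grhl1, a grainyhead factor, read 6.87, 7.71 and 8.09 against 8.73, 9.63 and 9.19, and Hopx, a homeodomain protein, read 8.64, 9.07 and 9.24 against 7.63, 6.72 and 7.79. The calls of Grhl1 (leave-one-out adjusted p = 0.155) and Hopx (0.129) were lost with any array left out, and Serpinb7 (0.0851) kept its call only without CD34+ replicate 3 or IFE replicate 1.

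Of 47 measured cytokines, chemokines and their receptors 10 were lower in CD34+ cells, 3 were higher and 34 did not pass. The median was -0.8, and -0.31 in the deposited log2 values. Markers of T cells were set beside these genes. Of 8 measured markers 1, Coro1a, was above 0 and none passed, and their median was -0.27. Their summed intensity, on a linear scale, was 1360 to 1770 in CD34+ cells and 1640 to 2100 in IFE cells, with overlapping ranges. Thy1, the marker with the highest values, read 10.38, 9.92 and 9.89 against 10.52, 10.37 and 10.21. Cd3g, a T cell receptor subunit, read 4.76, 5.17 and 4.88 against 6.22, 5.61 and 5.51, and Il2rb, an interleukin 2 receptor chain, read 4.53, 4.75 and 5.07 against 5.84, 5.43 and 5.34. Both were detected on all IFE arrays, Cd3g on 1 CD34+ array and Il2rb on none. Their part in the result was not tested. Tnfrsf19, a TNF receptor family member of hair follicles, read 6.01, 6.04 and 6.87 against 9.28, 9.03 and 9.34, and its other kept probe gave only -0.42. Il18r1, the interleukin 18 receptor, read 4.74, 6.36 and 5.15 against 8.15, 8.45 and 8.29. Il33, an alarmin stored in keratinocyte nuclei, read 7.01, 7.33 and 7.19 against 9.48, 9.78 and 9.18. For all 3 the distance between the groups exceeded 1.7 on the log2 scale. Il34, a ligand that sustains Langerhans cells, read 5.02, 6.44 and 6.11 against 7.69, 8.19 and 7.66. Il6ra, the interleukin 6 receptor, was detected on no CD34+ array and was at least 3.28-fold lower, and Il1rl2, the receptor for the interleukin 36 cytokines, was 3.84-fold lower. Il20ra, Il1r2, Ccl7 and Cxcl1, outside the rule for naming, were 3.09-fold to 3.63-fold lower. Of these, Il1r2 passed whichever array was left out, Il20ra (leave-one-out adjusted p = 0.0759) and Cxcl1 (0.102) kept their calls only without CD34+ replicate 2, and Ccl7 (0.141) only without CD34+ replicate 1. A further receptor gene, Il12rb2, was not on the list and read 5.22, 5.99 and 6.35 against 8.11, 8.11 and 8.73.

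The 3 genes of this list that were higher are Il31ra, a receptor for the itch cytokine interleukin 31, and the chemokines Cxcl12 and Cxcl14. Il31ra read 9.25, 9.51 and 9.26 and was detected on no IFE array, at least 16.7-fold higher. Cxcl14, constitutively made by epithelia, read 12.27, 11.65 and 11.82 against 10.89, 10.48 and 10.70, and Cxcl12 read 8.24, 7.85 and 7.55 against 6.70, 6.51 and 6.71. Both chemokines passed narrowly (limma adjusted p = 0.0471 and 0.0409) and lost their calls with any array left out (leave-one-out adjusted p = 0.166 and 0.146) and with the pool as a block (0.0776 and 0.0715). Il31ra, Il33, Il6ra and Tnfrsf19 passed whichever array was left out. Il12rb2 lost its call with any array left out (0.129), Il18r1 kept it only without CD34+ replicate 2 (0.0677), and Il34 lost it without any 1 of the IFE arrays (0.0828). Il1rl2 (0.0658) lost its call without CD34+ replicate 2, CD34+ replicate 3 or IFE replicate 3.

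**Figure D4:**
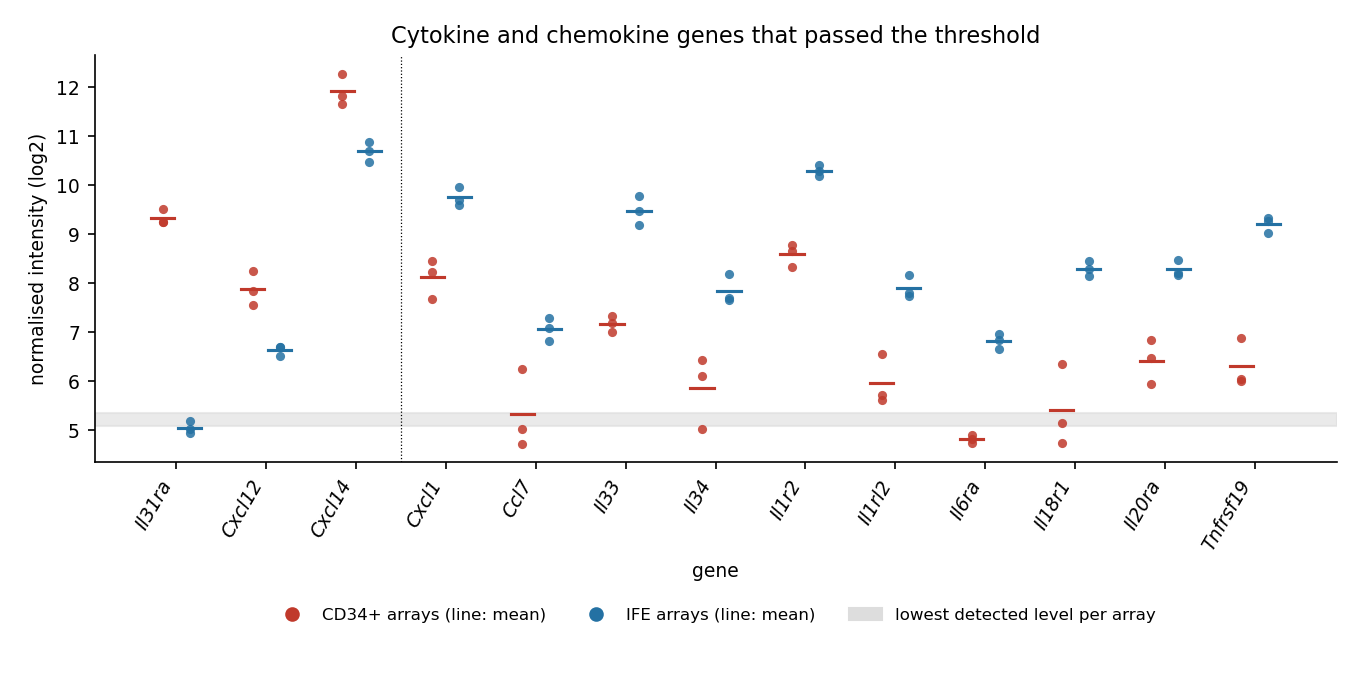
Normalised intensity (log2) of the 13 cytokine, chemokine and receptor genes that passed, on each array; points are arrays, short lines are group means of 3, and the grey band spans the lowest detected level of the 6 arrays. The first 3 genes lie higher on the CD34+ arrays and the other 10 lower, without overlap.

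Casp4, an inflammatory caspase, was among the largest decreases and read 5.87, 5.32 and 5.13 against 8.27, 8.37 and 8.44 (-2.92 ± 0.31, limma adjusted p = 0.000737). Cd55, which protects cells from complement, read 4.95, 7.09 and 7.42 against 9.43, 9.18 and 9.41, and Nfkbid, a nuclear inhibitor of NF-κB, read 6.51, 4.96 and 5.26 against 8.54, 7.56 and 8.38. Of 26 interferon and antigen presentation genes 2 were lower and none higher. Irf1, an interferon-induced transcription factor, read 9.93, 8.99 and 9.39 against 11.20, 10.64 and 10.99. Psmb8, an immunoproteasome subunit, read 7.45, 6.32 and 6.69 against 8.31, 8.62 and 8.35. Both lay below the IFE arrays throughout. Among 25 immediate early genes, which can be induced while skin is dissociated, only Fosl1 passed, 3.35-fold lower (0.017, leave-one-out adjusted p = 0.0829), and it kept its call only without CD34+ replicate 1. The list as a whole lay lower in CD34+ cells: its median was -0.41 and 3 of the 25 differences were above 0. The CD34+ arrays lay below the IFE arrays for 11, against 13.7% of all genes, and 4 were lower in the fit of 6 arrays. An effect of dissociation was not tested. Casp4 passed whichever array was left out. Cd55 (0.0855) lost its call without any 1 of the IFE arrays, and Irf1 (0.111) and Psmb8 (0.12, and 0.0549 with the pool as a block) kept theirs only without CD34+ replicate 1. Nfkbid (0.0775) kept its call only without CD34+ replicate 1 or IFE replicate 2.

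Genes of mitosis were lower in CD34+ cells. Of 42 measured genes 11 were lower and none was higher, where 1.85% of all genes were lower. The CD34+ arrays lay below the IFE arrays for 31, against 13.7% of all genes, and the median difference was -1.12. No mitosis gene was called higher under any scaling tried, with 6 lower genes after median centring and in the deposited log2 values and 19 in the 6 arrays alone, while the difference of Cdc25c, a phosphatase that starts mitosis, went from -1.13 to 0.01 after median centring and to 0.00 in the deposited values. Cdc25c lost its call with any array left out (leave-one-out adjusted p = 0.102) and with the pool as a block (0.0692). Aspm, a spindle pole protein, read 6.24, 5.85 and 6.06 against 8.42, 8.77 and 9.05. Plk1, a mitotic kinase, read 5.21, 6.21 and 6.54 against 8.77, 8.40 and 8.59. Kif23, a kinesin of the cleavage furrow, read 5.04, 5.70 and 5.12 against 8.09, 7.46 and 7.78. Cks2, a cyclin-dependent kinase subunit, read 5.84, 5.55 and 6.17 against 8.46, 8.09 and 8.22. These 4 genes differed by -2.70 ± 0.42, -2.60 ± 0.39, -2.49 ± 0.38 and -2.41 ± 0.28, and passed whichever array was left out. Anln, the cleavage furrow protein anillin, was 4.99-fold lower and Birc5, or survivin, 3.86-fold lower, while Foxm1, which activates mitotic genes, was 2.96-fold lower. The other kept probes gave differences of -2.44 and -0.84 for Anln, -1.09 and -1.02 for Birc5, and -1.73 for Foxm1. Anln lost its call with any array left out (leave-one-out adjusted p = 0.149), Foxm1 kept it only without CD34+ replicate 3 (0.0816), and Birc5 only without CD34+ replicate 1 (0.0769). In the fit of 6 arrays, Birc5 is read by another probe and did not pass (limma adjusted p = 0.0871). Top2a, a topoisomerase of dividing cells named after its values were seen, read 5.24, 5.11 and 5.13 against 6.87, 6.89 and 6.49 and did not pass (0.119). In these sorted populations, fewer dividing cells and less RNA per cell cannot be told apart.

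The promoters of the 4 mitosis genes with the largest decreases are shown because many genes of this phase are known to share a pair of short elements near their start: the CCAAT box, and the cell cycle homology region with the letters TTTGAA. Each line gives 300 bases along the gene's strand, from 250 before to 50 after the annotated start (RefSeq, build GRCm38.p6), with matches on either strand in capitals (CCAAT or ATTGG, and TTTGAA or TTCAAA). No match of one element overlaps a match of the other in these windows.
Aspm, chr1:139454523-139454822, plus strand: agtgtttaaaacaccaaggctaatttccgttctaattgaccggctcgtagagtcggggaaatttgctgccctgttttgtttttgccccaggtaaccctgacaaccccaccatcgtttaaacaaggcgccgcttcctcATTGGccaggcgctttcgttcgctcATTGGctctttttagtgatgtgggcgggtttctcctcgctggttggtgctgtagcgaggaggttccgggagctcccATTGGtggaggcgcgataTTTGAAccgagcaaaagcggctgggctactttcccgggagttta
Plk1, chr7:122159185-122159484, plus strand: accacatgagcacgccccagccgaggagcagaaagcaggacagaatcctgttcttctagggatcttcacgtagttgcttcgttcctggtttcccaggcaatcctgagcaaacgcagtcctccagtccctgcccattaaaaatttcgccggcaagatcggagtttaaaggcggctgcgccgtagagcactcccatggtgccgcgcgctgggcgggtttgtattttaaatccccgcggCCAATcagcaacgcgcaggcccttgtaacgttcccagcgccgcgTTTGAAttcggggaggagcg
Kif23, chr9:61946750-61947049, minus strand: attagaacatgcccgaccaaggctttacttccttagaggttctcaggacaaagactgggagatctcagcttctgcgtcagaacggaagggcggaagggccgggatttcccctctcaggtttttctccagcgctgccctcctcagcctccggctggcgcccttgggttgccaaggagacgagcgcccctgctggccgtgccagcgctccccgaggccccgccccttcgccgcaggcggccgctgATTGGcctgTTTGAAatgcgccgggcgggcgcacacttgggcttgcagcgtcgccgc
Cks2, chr13:51644982-51645281, plus strand: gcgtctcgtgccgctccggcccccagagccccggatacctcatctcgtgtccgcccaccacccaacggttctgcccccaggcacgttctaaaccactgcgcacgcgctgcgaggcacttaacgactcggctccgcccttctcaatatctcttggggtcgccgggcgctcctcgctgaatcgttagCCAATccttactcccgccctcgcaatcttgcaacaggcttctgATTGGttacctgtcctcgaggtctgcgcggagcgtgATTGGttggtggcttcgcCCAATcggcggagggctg

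All 4 windows hold CCAAT, and those of Aspm, Plk1 and Kif23 also hold TTTGAA, close to the annotated start. Over the measured mitosis genes, 33 had a promoter in the reference, with 35 windows in all. CCAAT was found in 27 of the 35 (77.1%), against 37.8% of 9981 windows of the genes tested and 37.4% of all 32851 windows. TTTGAA was likewise found in 27 of the 35 (77.1%), against 12.2% and 17.9%. Of the 11 mitosis genes that were lower in CD34+ cells 7 had a window, and of these 7 windows 5 held CCAAT and 5 held TTTGAA (71.4%). The shares describe the letters of these windows and are no measure of binding.

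None of 29 measured DNA replication genes passed. Their median was -0.43, and -0.13 in the deposited log2 values. The CD34+ arrays lay below the IFE arrays for 12 of them, against 13.7% of all genes. Mcm6, a helicase subunit, read 9.29, 9.08 and 8.90 against 10.26, 9.49 and 9.78, and Pcna, the sliding clamp, read 8.51, 8.58 and 8.38 against 9.18, 9.38 and 8.77. Of 48 histone genes 5 were lower and none higher, led by the linker histone H1f5 (6.42, 7.33 and 6.42 against 8.69, 8.85 and 8.43). Histone genes have near-identical copies, so the assignment to single genes is uncertain. Of 24 regulators of G1, Cdk6, a G1 kinase, and Mycl, a Myc family factor, were lower. Cdk6 read 5.55, 5.71 and 5.49 against 7.49, 7.06 and 7.71 (0.0516 without IFE replicate 1 and 0.0584 without IFE replicate 3). Mycl was detected on no CD34+ array and was at least 2.66-fold lower (limma adjusted p = 0.0156, leave-one-out adjusted p = 0.0736, lost with any array left out). The kinase inhibitor Cdkn1c, named after its values were seen, read 7.11, 6.14 and 5.37, with all IFE arrays undetected, and did not pass (0.125). Ccnd1, or cyclin D1, read 10.57, 10.16 and 10.23 against 9.92, 10.11 and 10.36.

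The largest decrease was in Slc1a1, a glutamate and cysteine transporter, which read 4.83, 5.24 and 6.64 in CD34+ cells and 9.01, 8.90 and 8.97 in IFE cells (-3.39 ± 0.45). Its other kept probe gave -0.72. Slc2a9, a urate transporter, read 7.91, 8.01 and 6.93 in IFE cells and was at least 5.71-fold lower in CD34+ cells, where no array detected it. Slco2b1, an organic anion transporter, read 7.32, 6.68 and 7.41 against 9.62, 9.26 and 9.80. Of 153 measured solute carriers 11 were lower and 6 higher, where 1.85% of all genes were lower and 2.94% higher. After median centring 5 were lower and 7 higher, and in the deposited log2 values 6 were lower and 5 higher. Among the higher ones, Slc29a1, a nucleoside transporter, read 8.37, 8.52 and 8.88 against 6.93, 6.57 and 6.04.

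The paralogues Clca2, Clca3a1 and Clca3a2, neighbouring regulators of chloride channels, were all lower. Clca3a2 read 6.80, 7.39 and 7.85 against 9.40, 10.01 and 9.88, Clca3a1 read 5.0, 5.51 and 5.34 against 7.37, 7.07 and 7.84, and Clca2 read 7.69, 7.70 and 7.66 against 9.40, 9.44 and 9.74. Related copies may share signal on the array. Clca2 lost its call with any array left out (leave-one-out adjusted p = 0.104), and the other 2 did not. Gna14, a G protein subunit, was detected on no CD34+ array and was at least 5.28-fold lower (7.62, 7.47 and 7.43 in IFE cells). Dnajc6, an auxilin of clathrin uncoating, was 5.42-fold lower and Plbd1, a phospholipase-like protein, 5.04-fold lower. Esr1, the oestrogen receptor α, read 4.93, 5.98 and 5.87 against 7.70, 7.68 and 7.01, and Vegfa, the main angiogenic growth factor, read 5.84, 5.79 and 5.76 against 8.11, 7.71 and 6.87. In both, the lowest IFE array was replicate 3 and still exceeded every CD34+ array. Esr1 (0.0785) lost its call without CD34+ replicate 1, IFE replicate 1 or IFE replicate 2, and Vegfa (0.107, and 0.0518 with the pool as a block) kept it only without IFE replicate 3. The other kept probe of Esr1 gave a difference of -0.73 beside -1.87.

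Metabolic and housekeeping lists held few or no calls, where 4.8% of all genes tested passed. The counts in the smaller of these lists are near that share. Among 24 genes of the TCA cycle and its entry, only Me2, a mitochondrial malic enzyme, passed: 7.88, 7.38 and 6.71 against 5.25, 5.36 and 4.95. Of 26 genes of fatty acid synthesis and oxidation only Fads1, a desaturase, passed, 5.72-fold higher. None of 67 cytosolic ribosomal proteins passed, with a median of 0.0 and differences from -0.63 to 1.41. None of 72 mitochondrial ribosomal proteins, 74 respiratory chain subunits, 31 glutathione and oxidative stress genes or 15 cholesterol synthesis genes passed in this fit. For 10 of the 31 glutathione and oxidative stress genes the CD34+ arrays lay above the IFE arrays, and for 3 below. Over all genes these shares were 13.9% and 13.7%. In the fit of 6 arrays, 4 of 29 genes of that list were higher and none lower.

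**Figure D5:**
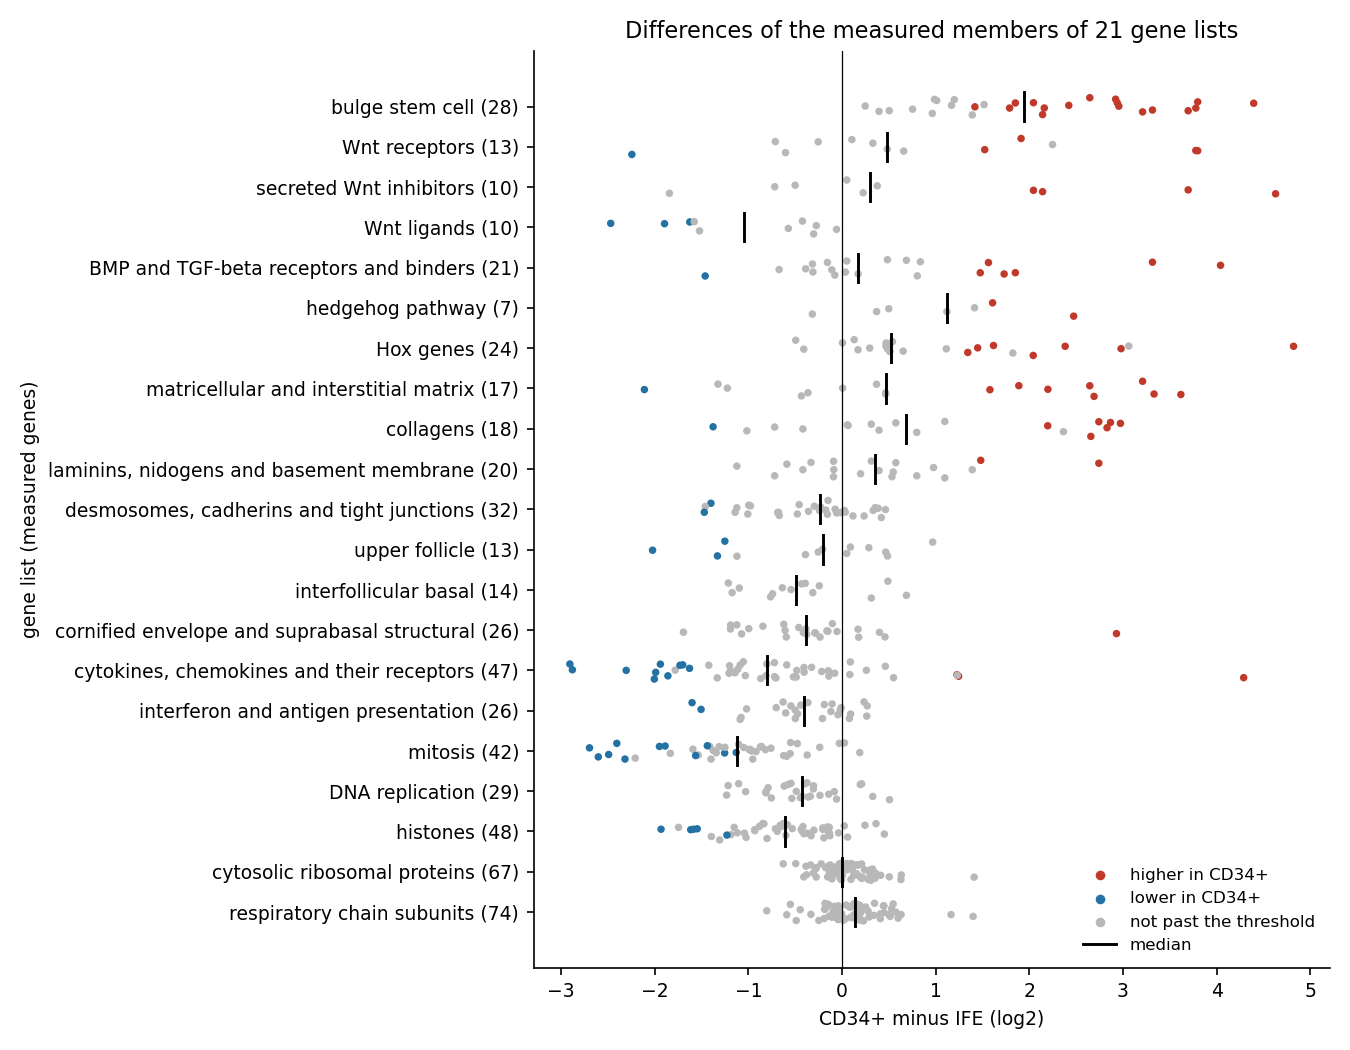
Difference CD34+ minus IFE (log2) of each measured member of 21 gene lists; red, higher; blue, lower; grey, not past the threshold; black bars, list medians. The bulge list has its median at 1.95 and the mitosis list at -1.12, while ribosomal proteins centre on 0.0.

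Markers of other skin cells were compared with the same values. No gene of the lists for endothelial cells, Langerhans cells and macrophages, T cells, Merkel cells, Schwann cells, muscle and adipocytes, red blood cells or smooth muscle passed. Of the melanocyte list Mitf alone passed. The pigment enzymes Tyr, Tyrp1 and Dct were detected on none of the 6 arrays, and the summed intensity of the melanocyte list ranged from 443 to 549 for CD34+ cells and from 224 to 292 for IFE cells. Mitf was the only 1 of 4 measured melanocyte genes with a difference above 0 (3.05), and the median of the 4 was -0.14. The higher sum therefore reflects Mitf and not the list as a whole. Langerhans cell markers were present in both groups, summing to 776 to 928 and 613 to 918: Cd207, or langerin, read 6.55, 6.10 and 6.30 against 6.77, 6.62 and 5.64. The T cell marker Cd8a read 7.06, 7.32 and 6.91 against 7.58, 7.01 and 6.85. Schwann cell markers summed to 196 to 273 in CD34+ cells and 369 to 529 in IFE cells. The part of such cells in the differences above was not tested.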

How the data were processed

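RNA of sorted cells (Trizol, Nugen amplification, per the labels' protocols) was read on Illumina MouseRef-8 v2.0 arrays. The deposited table holds, per probe and array, a detection p-value, a raw bead intensity with its bead standard error, and how many beads were read, per the file headers. GenomeStudio 2010.3 is named in the submitters' processing notes. A separate table of log2 values deposited by the authors equals log2 of the raw intensity to within 5.53e-05, so it is not normalised between arrays. Intensities were background-corrected and quantile-normalised with neqc (limma 3.58.1, offset 16, R 4.3.3). A probe was kept where 2 or more arrays had a detection p under 0.05, and each gene was read by its probe with the highest mean over the 8 arrays. Several probes were kept for 130 of the called genes. All their probes agreed in direction for 119, and for 61 every other probe gave at least 1/2 of the difference of the probe used. Other probes are given for some named genes only. Of 25697 probes, 23978 have 1 gene symbol and 1719 none. Group means were fitted to all 8 arrays with lmFit and eBayes, with Benjamini-Hochberg adjustment over 9545 genes. Precision is limited by how few arrays there are, and the median SE of a log2 difference was 0.35. The fitting was tested on simulated data.

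The design text pools mice by replicate of the experiment, so same-numbered CD34+ and IFE samples were taken to come from 1 pool and to be paired. Deviations of same-numbered arrays from their group means correlated at 0.0612, 0.0509 and 0.0909. The fit with the pool as a block is an alternative. Named genes are the largest changes among those past the threshold and the leading members of each list. Genes chosen after their values were seen are marked in the text. The members and lists were chosen with earlier results of these data known. Promoter sequences are from RefSeq, build GRCm38.p6.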

Additional observations from a re-analysis of the deposited data

How the results depend on the processing

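Of the 458 called genes, Cdc25c alone lost its direction in any of the fits, at 0.01 after median centring and 0.00 in the deposited log2 values, against -1.13. The count rose to 829 genes (448 higher and 381 lower) in the 6 arrays alone, and to 820 (437 and 383) with either GFP-positive array left out. Scaling moved the lower calls most: median centring gave 310 higher and 91 lower genes, with the median of all genes at 0.126, and the deposited log2 values gave 306 and 83, against 281 and 177. Restricting calls to at least 4-fold left 194. Leaving out 1 CD34+ or IFE array gave 189 to 251 calls, 142 to 174 higher and 47 to 81 lower. Pairing the samples by pool as a replicate block gave 346 calls (219 higher and 127 lower); the calls of named genes lost with it are given beside them. Cyclic loess gave 427, an offset of 50 gave 525, no background correction 568, no detection filter 387, a stricter filter 475 and the mean of all kept probes 502. A filter on detection in all 3 arrays of a group, chosen after seeing the data, gave 513. Signals near background limit the "at least" folds.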
